A study of Mus musculus with 12 samples.

Results

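Genes that build and drive the motile cilia of airway epithelium were followed in mouse lungs exposed to ozone (O3) in the presence or absence of Nfkb1, which encodes the p50/p105 subunit of NF-κB. The set held 38 genes named by symbol from their known place in the ciliated cell, and 37 of them were measured among 17569 genes. Lrriq1 had no probe set assigned to it. Each gene was read from the probe set annotated with its symbol alone, and where several existed, from the one with the highest mean over all arrays. All 37 genes lay above the limit used here for low signal (4.37 on the log2 scale, the 20th percentile of an array) in all 12 arrays, and the lowest single value among them was 5.34.

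Left lung RNA from individual male mice aged 6 to 8 weeks was measured on Affymetrix 430 2.0 mouse expression arrays, with 3 mice per group and a separate array for each. Wild-type mice (Nfkb1+/+, stock B6129PF2/J) breathed filtered air (WT-Air) or 0.3 ppm O3 for 48 h (WT-O3). Nfkb1-deficient mice (Nfkb1-/-, homozygous for the targeted allele Nfkb1tm1Bal in every cell type) received the same air (Nfkb1KO-Air) or O3 (Nfkb1KO-O3). The wild-type mice were a separately purchased stock, so genotype and stock cannot be told apart, and air and O3 were given in separate chambers, so exposure and chamber cannot be told apart either.

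Motile cilia are hair-like projections of the multiciliated cells that line the conducting airways, where they beat to move mucus towards the throat. Their core, the axoneme, is a ring of microtubule doublets around a central pair, and outer and inner dynein arms on the doublets are the motors of the beat. Radial spokes and the central apparatus control the motors, a protein lattice inside the doublets stiffens them, and intraflagellar transport carries parts in and out of the cilium. The transcription factors Foxj1 and the RFX family switch on this programme. Loss of many of these proteins causes primary ciliary dyskinesia, in which airway clearance fails. Ciliated cells make up a small share of a whole lung, and in such bulk tissue fewer ciliated cells and less RNA per ciliated cell cannot be told apart.

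Promoter sequence was available for 33 of the 38 genes (36 windows of 250 bases before to 50 bases after a gene start, RefSeq, GRCm38.p6). Each of 4 sets of letters was searched on either strand. A narrow form of the X-box to which RFX factors bind, GTTNCC followed within at most 3 bases by GGNAAC, was found in 0 of the 36 windows and in 264 of all 32851 promoter windows (0.804%). This form leaves out X-boxes whose right arm begins with A, as in the Dynlrb2 window. The wider RFX X-box consensus, searched after these results were seen, was in 8 of the 36 windows, in Dynlrb2, Hydin, Lrrc23, Lrriq1, Spag16, Spef2 and Tekt2, against 1.53% of all windows. The left arm alone, GTTGCC, was in 19 of the 36 windows, in 18 of the 33 genes, against 12.5% of all windows. The forkhead letters TGTTTAC, of the kind Foxj1 can bind, were in 2 windows (Ak7 and Mlf1), against 3.65% of all windows. A match is a description of the letters, not evidence of binding, and GTTGCC forms part of some X-boxes, so these searches overlap. The windows below belong to the 6 genes with the smallest adjusted p among those lower after O3 that held GTTGCC, and are shown because these are the genes whose signals are described next. They run 5′ to 3′ on the gene's strand from 170 bases before the gene start, and capitals mark GTTGCC or its reverse complement. Positions are Lrrc23 at chr6:124779698-124779897 (minus strand), Mns1 at chr9:72438359-72438558 (plus strand), Dynlrb2 at chr8:116504845-116505044 (plus strand), Tekt4 at chr17:25471420-25471619 (plus strand), Ccdc113 at chr8:95533930-95534129 (plus strand) and Tekt2 at chr4:126325659-126325858 (minus strand).
Lrrc23: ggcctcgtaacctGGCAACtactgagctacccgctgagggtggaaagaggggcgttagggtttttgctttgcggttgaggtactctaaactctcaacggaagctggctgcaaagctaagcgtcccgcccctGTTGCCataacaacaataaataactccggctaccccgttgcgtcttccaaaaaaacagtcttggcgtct
Mns1: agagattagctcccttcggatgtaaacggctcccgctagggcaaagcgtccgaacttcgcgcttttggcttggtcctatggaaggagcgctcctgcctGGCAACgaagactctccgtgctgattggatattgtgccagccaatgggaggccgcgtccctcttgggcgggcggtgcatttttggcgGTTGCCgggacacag
Dynlrb2: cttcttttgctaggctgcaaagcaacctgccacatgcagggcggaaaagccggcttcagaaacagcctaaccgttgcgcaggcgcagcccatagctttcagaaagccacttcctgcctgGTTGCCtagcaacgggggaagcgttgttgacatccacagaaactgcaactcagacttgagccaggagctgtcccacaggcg
Tekt4: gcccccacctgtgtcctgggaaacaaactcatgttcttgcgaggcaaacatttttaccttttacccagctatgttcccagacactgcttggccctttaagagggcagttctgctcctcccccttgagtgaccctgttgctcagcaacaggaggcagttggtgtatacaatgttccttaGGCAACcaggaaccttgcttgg
Ccdc113: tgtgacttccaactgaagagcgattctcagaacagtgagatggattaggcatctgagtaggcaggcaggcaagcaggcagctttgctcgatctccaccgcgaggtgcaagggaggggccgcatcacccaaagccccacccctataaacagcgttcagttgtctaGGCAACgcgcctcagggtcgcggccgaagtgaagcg
Tekt2: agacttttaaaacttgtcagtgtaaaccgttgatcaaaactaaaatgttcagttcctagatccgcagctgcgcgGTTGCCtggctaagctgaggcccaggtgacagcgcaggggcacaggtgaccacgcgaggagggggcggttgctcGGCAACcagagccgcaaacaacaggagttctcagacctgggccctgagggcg
Lrrc23, Mns1 and Tekt2 each held 2 copies within 200 bases, and in Ccdc113 the copy ended at the base just before the gene start.

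The deposited values were MAS5 signals, a per-array summary of the probes in a probe set. Levels are given as log2 of the quantile-normalised signal, differences as log2 differences with their standard error, and "called" means an adjusted p under 0.05 in limma (Benjamini-Hochberg over all 17569 genes). The exact test of 3 against 3 arrays cannot go below p = 0.1. That limit does not hold for O3 averaged over both genotypes, which uses all 12 arrays. Single genes were judged with limma alone in every comparison. As a check of the tissue label, 7 of 8 alveolar type 2 markers were measured, and their signals summed to between 90900 and 99900 in every array. Array 1 of Nfkb1KO-Air stood apart, with a median deposited signal of 179.8 against 98.9 to 120.6 in the other arrays, and skeletal muscle markers reached a sum of 37000 in array 3 of WT-Air. The annotation named 0 probe sets for Nfkb1 itself, so the level of the deleted gene was not used to check the genotypes.

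O3 lowered the signal of most motile cilia genes. Averaged over both genotypes, 23 of the 37 genes were called lower and 0 higher, where 7.51% of all genes were called lower and 7.7% higher. All 37 differences were negative (52.8% of all genes were), with a median of -0.65 (1.57-fold lower) and a range of -1.08 (Lrrc23) to -0.11 (Ak8), while the median over all genes was -0.02. When each array was instead centred on its median, which shifted the median of all genes to 0.13, Dnah9 (0.05) and Ak8 (0.00) no longer lay below 0, 6 genes were called and the median was -0.61 relative to all genes. In 35 of the 37 genes the lowest of the 12 arrays was an O3 array. The call count was 15 without array 3 of WT-O3 or without array 3 of Nfkb1KO-O3.

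**Figure D1:**
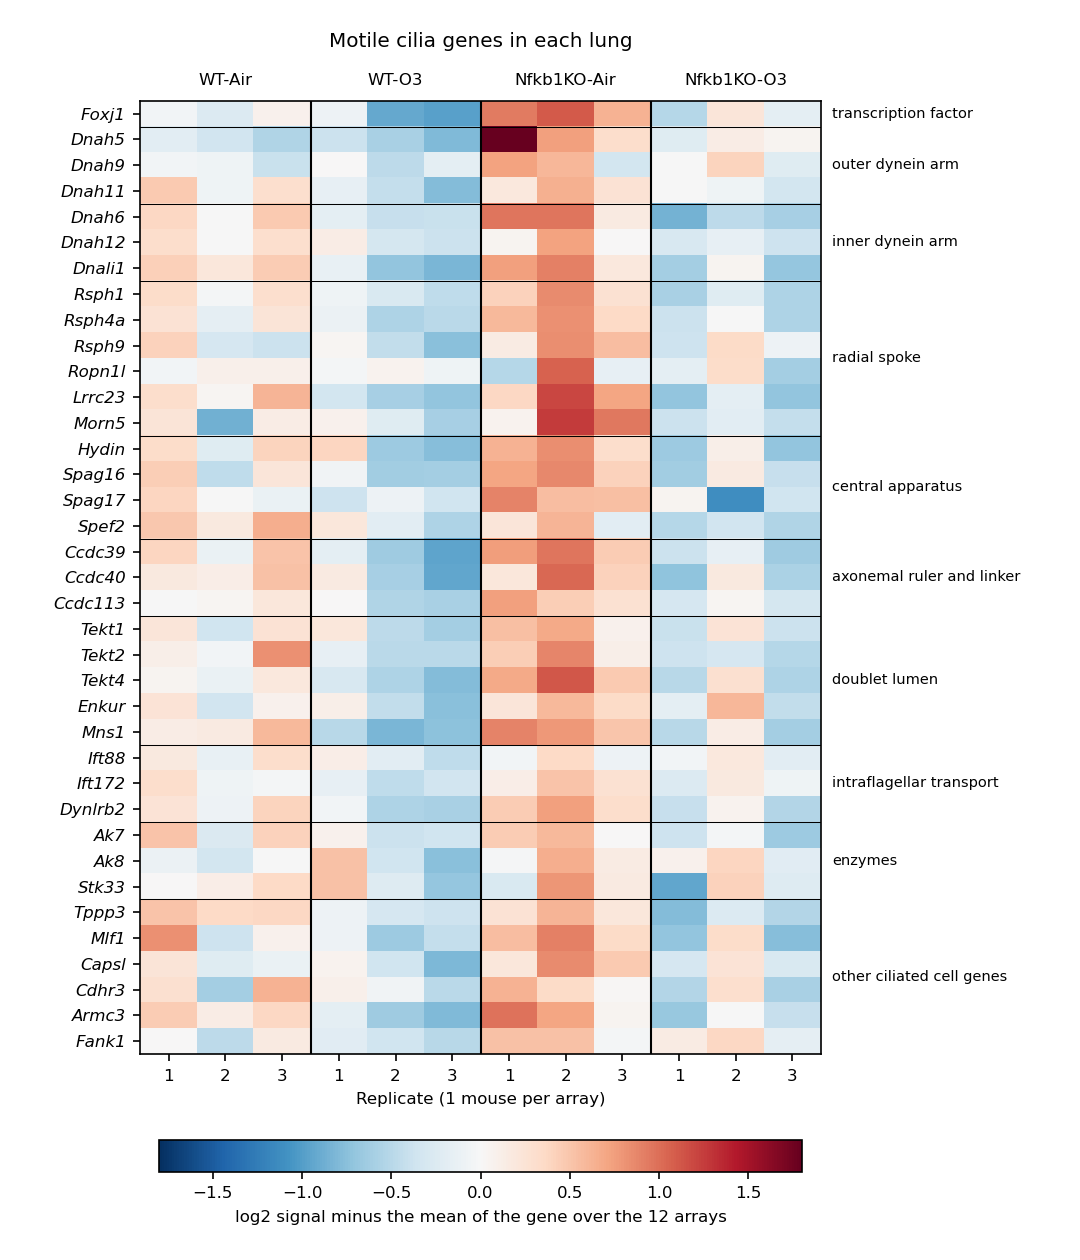
Each row is a gene, grouped by its place in the cilium, each column is 1 array (1 mouse), and colour is the log2 signal minus the mean of that gene over the 12 arrays. O3 columns are mostly blue and air columns mostly red, with array 2 of Nfkb1KO-Air the highest of all 12 in 28 of the 37 genes and array 3 of WT-O3 the lowest in 20.

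Foxj1, the transcription factor that directs motile ciliogenesis, had a log2 signal of 10.17, 9.97 and 10.30 in WT-Air, 10.13, 9.29 and 9.24 in WT-O3, 11.15, 11.32 and 10.84 in Nfkb1KO-Air and 9.70, 10.44 and 10.04 in Nfkb1KO-O3. The 2 lower WT-O3 arrays lay below every air array, but array 1 of WT-O3 fell within the WT-Air range, and the Nfkb1KO-Air arrays were the highest of all. Foxj1 fell by 0.82 ± 0.17 with O3 averaged over both genotypes (1.76-fold, adjusted p = 0.0062).

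Of the 6 dynein arm genes, whose products are the motors of the beat, 3 were called lower (7.51% of all genes). Inner arm heavy chain Dnah6 read 9.44, 9.07 and 9.54 in WT-Air, 8.89, 8.66 and 8.67 in WT-O3, 10.03, 10.04 and 9.24 in Nfkb1KO-Air and 8.22, 8.60 and 8.47 in Nfkb1KO-O3. All 6 O3 arrays lay below all 6 air arrays, and Dnah6 fell by 0.98 ± 0.15 (1.97-fold, adjusted p = 0.001). Dnali1, a light intermediate chain of the inner arms, read 9.84, 9.61 and 9.87 in WT-Air, 9.27, 8.70 and 8.59 in WT-O3, 10.14, 10.31 and 9.59 in Nfkb1KO-Air and 8.79, 9.46 and 8.71 in Nfkb1KO-O3. It fell by 0.97 ± 0.17 (1.96-fold, adjusted p = 0.0024), again with all O3 arrays below all air arrays. Of the outer arm heavy chains, Dnah11 fell by 0.59 ± 0.15 (adjusted p = 0.022), whereas Dnah5 had a difference of -0.60 ± 0.22 that was not called (adjusted p = 0.087). Dnah9, another outer arm heavy chain, read 8.87, 8.84 and 8.52 in WT-Air, 8.93, 8.45 and 8.75 in WT-O3, 9.65, 9.52 and 8.59 in Nfkb1KO-Air and 8.92, 9.33 and 8.70 in Nfkb1KO-O3. Its groups overlapped throughout, and its difference was -0.15 with a 95% interval of -0.55 to 0.25. The inner arm heavy chain Dnah12 was not called either, at -0.47 ± 0.15 (adjusted p = 0.06).

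Of the 6 radial spoke genes, 3 were called lower (7.51% of all genes). Lrrc23, a spoke component, had the largest difference of all 37 genes under quantile normalisation and read 10.35, 10.07 and 10.64 in WT-Air, 9.70, 9.44 and 9.32 in WT-O3, 10.41, 11.23 and 10.74 in Nfkb1KO-Air and 9.33, 9.86 and 9.32 in Nfkb1KO-O3. The O3 arrays did not overlap the air arrays, and Lrrc23 fell by 1.08 ± 0.15 (2.11-fold, adjusted p = 0.00067). Rsph1, in the spoke head, read 10.47, 10.11 and 10.45 in WT-Air, 10.07, 9.87 and 9.69 in WT-O3, 10.55, 10.99 and 10.42 in Nfkb1KO-Air and 9.56, 9.92 and 9.59 in Nfkb1KO-O3. It fell by 0.71 ± 0.12 (1.64-fold, adjusted p = 0.0017), without overlap between air and O3. Rsph4a, also in the spoke head, read 10.23, 9.81 and 10.20 in WT-Air, 9.87, 9.42 and 9.49 in WT-O3, 10.55, 10.79 and 10.33 in Nfkb1KO-Air and 9.59, 9.97 and 9.41 in Nfkb1KO-O3. Array 2 of WT-Air (9.81) lay within the O3 range, and Rsph4a fell by 0.69 ± 0.13 (adjusted p = 0.0034). Rsph9, a further head protein (-0.42 ± 0.19), Morn5 (-0.58 ± 0.24) and Ropn1l (-0.17 ± 0.25) were not called. Ropn1l read 7.31, 7.45 and 7.46 in WT-Air, 7.33, 7.43 and 7.28 in WT-O3, 6.85, 8.42 and 7.21 in Nfkb1KO-Air and 7.19, 7.69 and 6.75 in Nfkb1KO-O3. Its Nfkb1KO arrays spread far more widely than its WT arrays, and its averaged difference was 0.06 without array 2 of Nfkb1KO-Air.

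With O3 averaged over both genotypes, the genes of the central apparatus and of the proteins that set the spacing along the doublets were all called lower. All 4 central apparatus genes were called, against 7.51% of all genes called lower. They were Hydin (-0.76 ± 0.23), Spag16 (-0.73 ± 0.18), Spag17 (-0.75 ± 0.23) and Spef2 (-0.65 ± 0.18), with adjusted p between 0.018 and 0.042. By genotype, 0 of these 4 were called in WT mice (2.24% of all genes called lower) and 1 in Nfkb1-/- mice (2.83%). Ccdc39, which with Ccdc40 forms the ruler that fixes the axonemal repeat, read 9.96, 9.45 and 10.09 in WT-Air, 9.40, 8.93 and 8.62 in WT-O3, 10.32, 10.54 and 10.03 in Nfkb1KO-Air and 9.18, 9.42 and 8.94 in Nfkb1KO-O3. The lowest air value (9.45) was just above the highest O3 value (9.42), and Ccdc39 fell by 0.98 ± 0.16 (1.98-fold, adjusted p = 0.0014). Ccdc40 fell by 0.82 ± 0.22 (adjusted p = 0.022) and Ccdc113 by 0.56 ± 0.13 (adjusted p = 0.0098).

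Of the 5 genes of the lattice inside the doublets, all negative, Mns1, Tekt2 and Tekt4 were called, against 7.51% of all genes called lower. The intervals of Tekt1 (-0.87 to -0.08) and Enkur (-0.78 to 0.04) overlapped that of Tekt2 (-1.15 to -0.39). Mns1 read 8.79, 8.81 and 9.23 in WT-Air, 8.16, 7.83 and 7.91 in WT-O3, 9.54, 9.43 and 9.15 in Nfkb1KO-Air and 8.16, 8.79 and 8.04 in Nfkb1KO-O3. All O3 arrays lay at or below the lowest air array. Mns1 fell by 1.01 ± 0.15 (2.01-fold, adjusted p = 0.00077). Tekt4, a tektin filament protein, read 8.99, 8.83 and 9.13 in WT-Air, 8.66, 8.39 and 8.16 in WT-O3, 9.62, 10.06 and 9.42 in Nfkb1KO-Air and 8.44, 9.23 and 8.39 in Nfkb1KO-O3. Its highest O3 array, array 2 of Nfkb1KO-O3, lay above all WT-Air arrays, while within each genotype O3 lay below air, and Tekt4 fell by 0.79 ± 0.16 (adjusted p = 0.0068). Tekt2, another tektin, fell by 0.77 ± 0.17 (adjusted p = 0.011), while Tekt1 (-0.48 ± 0.18, adjusted p = 0.1) and Enkur (-0.37 ± 0.19, adjusted p = 0.23) did not pass.

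Among transport genes, Dynlrb2, a dynein light chain of the retrograde transport motor, read 12.61, 12.28 and 12.77 in WT-Air, 12.32, 11.81 and 11.78 in WT-O3, 12.82, 13.10 and 12.69 in Nfkb1KO-Air and 11.95, 12.43 and 11.84 in Nfkb1KO-O3. Array 2 of WT-Air lay below the highest O3 arrays, and Dynlrb2 fell by 0.69 ± 0.13 (1.61-fold, adjusted p = 0.0041). Ift172, which also serves the primary cilia found on many cell types, fell by a smaller 0.37 ± 0.11 (adjusted p = 0.035), and Ift88 was not called at -0.19 with an interval of -0.48 to 0.10. Of the enzymes, the adenylate kinase Ak7 fell by 0.57 ± 0.16 (adjusted p = 0.028), whereas the kinase Stk33 was at -0.39 ± 0.27. The adenylate kinase Ak8 read 7.89, 7.67 and 7.99 in WT-Air, 8.53, 7.64 and 7.24 in WT-O3, 7.98, 8.65 and 8.14 in Nfkb1KO-Air and 8.07, 8.39 and 7.80 in Nfkb1KO-O3. Array 1 of WT-O3 was the highest of the WT arrays and array 3 of WT-O3 the lowest, and the Ak8 difference of -0.11 had an interval of -0.57 to 0.35 and was 0.03 without array 3 of WT-O3.

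Tppp3, a tubulin-binding protein abundant in multiciliated cells, had the smallest adjusted p of the 37 genes and read 13.30, 13.15 and 13.16 in WT-Air, 12.70, 12.48 and 12.41 in WT-O3, 13.05, 13.40 and 12.99 in Nfkb1KO-Air and 12.00, 12.54 and 12.26 in Nfkb1KO-O3. The 6 air arrays (12.99 to 13.40) were all above the 6 O3 arrays (12.00 to 12.70), and Tppp3 fell by 0.78 ± 0.10 (1.71-fold, adjusted p = 0.00036). Armc3, an armadillo repeat protein, read 8.43, 8.10 and 8.35 in WT-Air, 7.80, 7.34 and 7.18 in WT-O3, 8.95, 8.69 and 8.02 in Nfkb1KO-Air and 7.29, 7.97 and 7.56 in Nfkb1KO-O3. Its air and O3 arrays did not overlap, and it fell by 0.90 ± 0.19 (1.87-fold, adjusted p = 0.0067). Mlf1 fell by 0.78 ± 0.23 (adjusted p = 0.035), and Capsl (-0.48 ± 0.17), Cdhr3 (-0.43 ± 0.22) and Fank1 (-0.23 ± 0.15) were not called. In 9 genes (Dnah6, Dnali1, Rsph1, Lrrc23, Ccdc39, Tekt2, Mns1, Tppp3 and Armc3) all 6 O3 arrays lay below all 6 air arrays, a pattern held by 2.99% of all genes.

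**Figure D2:**
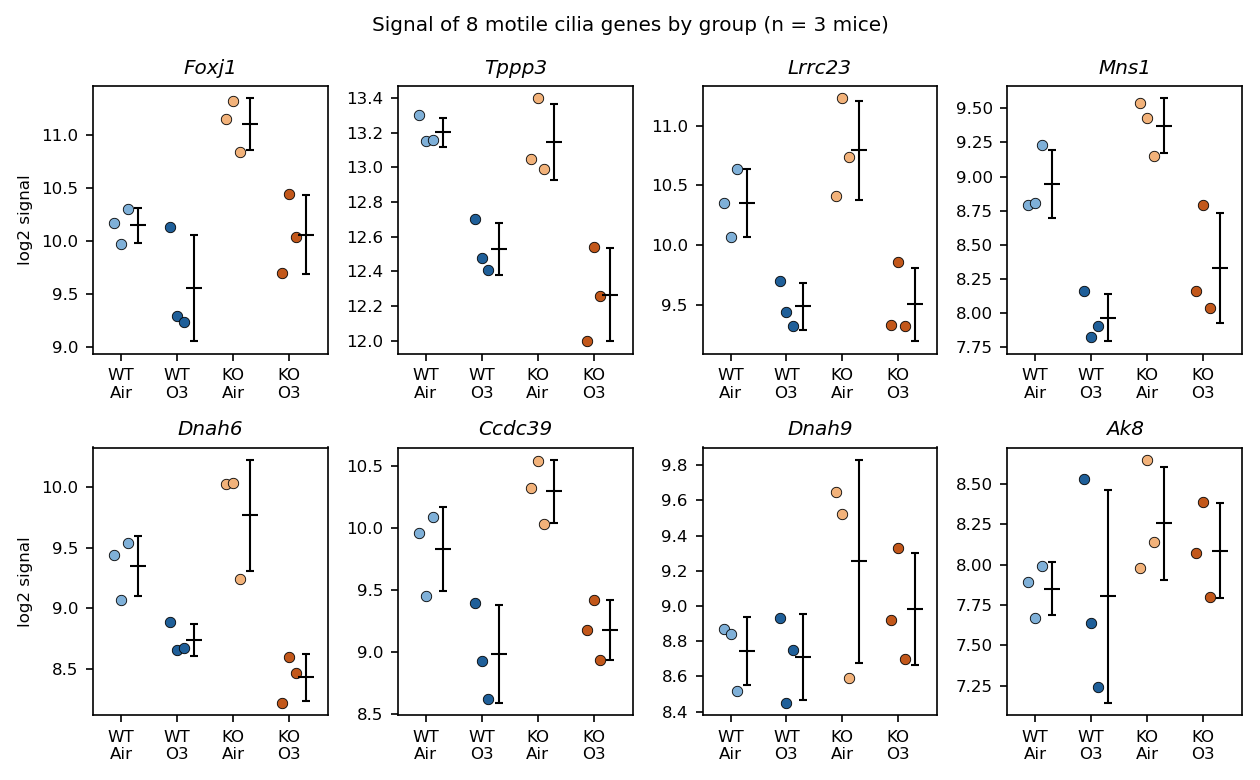
Log2 signal of 8 genes in the 4 groups, 1 point per mouse, with the mean and SD of the 3 mice beside the points; each panel has its own axis. In Tppp3, Lrrc23, Mns1, Dnah6 and Ccdc39 the O3 mice lie below the air mice of the same genotype, while Dnah9 and Ak8 overlap in all groups.

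Within each genotype, O3 lowered fewer genes past the threshold. In WT mice 5 of the 37 genes were called lower and 0 higher (all genes 2.24% lower), with a median difference of -0.46 (all genes -0.03) and a range of -0.98 to -0.03, so that all 37 were negative (53.5% of all genes). These were Mns1 (-0.98 ± 0.21, adjusted p = 0.018), Dnali1 (-0.92 ± 0.24, adjusted p = 0.044), Lrrc23 (-0.86 ± 0.22, adjusted p = 0.038), Ccdc39 (-0.85 ± 0.22, adjusted p = 0.044) and Tppp3 (-0.68 ± 0.14, adjusted p = 0.017). Foxj1 was not called in WT, at -0.60 ± 0.24 (adjusted p = 0.18). In 12 genes the WT-O3 arrays lay wholly below the WT-Air arrays, as in 14.1% of all genes. The WT calls depended on single arrays, with 0 left without array 2 or array 3 of WT-O3 or with arrays centred on their medians, 1 without array 1 or array 3 of WT-Air and 2 without array 1 of Nfkb1KO-O3. They numbered 8 without both array 1 of WT-O3 and array 2 of Nfkb1KO-O3, a choice made after seeing the data.

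In Nfkb1-/- mice 13 of the 37 genes were called lower after O3 and 0 higher (all genes 2.83% lower). All 37 differences were negative (51.4% of all genes), with a median of -0.87 (all genes -0.01) and a range of -1.34 (Dnah6) to -0.09 (Ift88). The 13 included the 5 genes called in WT, and 0.939% of all genes were called lower in both genotypes. The others were Foxj1 (-1.04 ± 0.24, adjusted p = 0.024), Dnah6 (-1.34 ± 0.21, adjusted p = 0.0042), the spoke head genes Rsph1 and Rsph4a (-0.96 ± 0.17 and -0.90 ± 0.18), Spag16, Ccdc113, Tekt4 and Dynlrb2. In 25 genes the Nfkb1KO-O3 arrays lay wholly below the Nfkb1KO-Air arrays (12.3% of all genes), and 11 genes showed this separation in both genotypes (4.86% of all genes). The count was 4 without array 1 of Nfkb1KO-O3, 7 without array 3 of that group or array 2 of Nfkb1KO-Air, and 8 without array 1 of Nfkb1KO-Air. When arrays were centred on their medians, the median of all genes moved to 0.25, 1 gene was called, 32 of 37 differences were negative and the median was -0.76 relative to all genes.

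**Figure D3:**
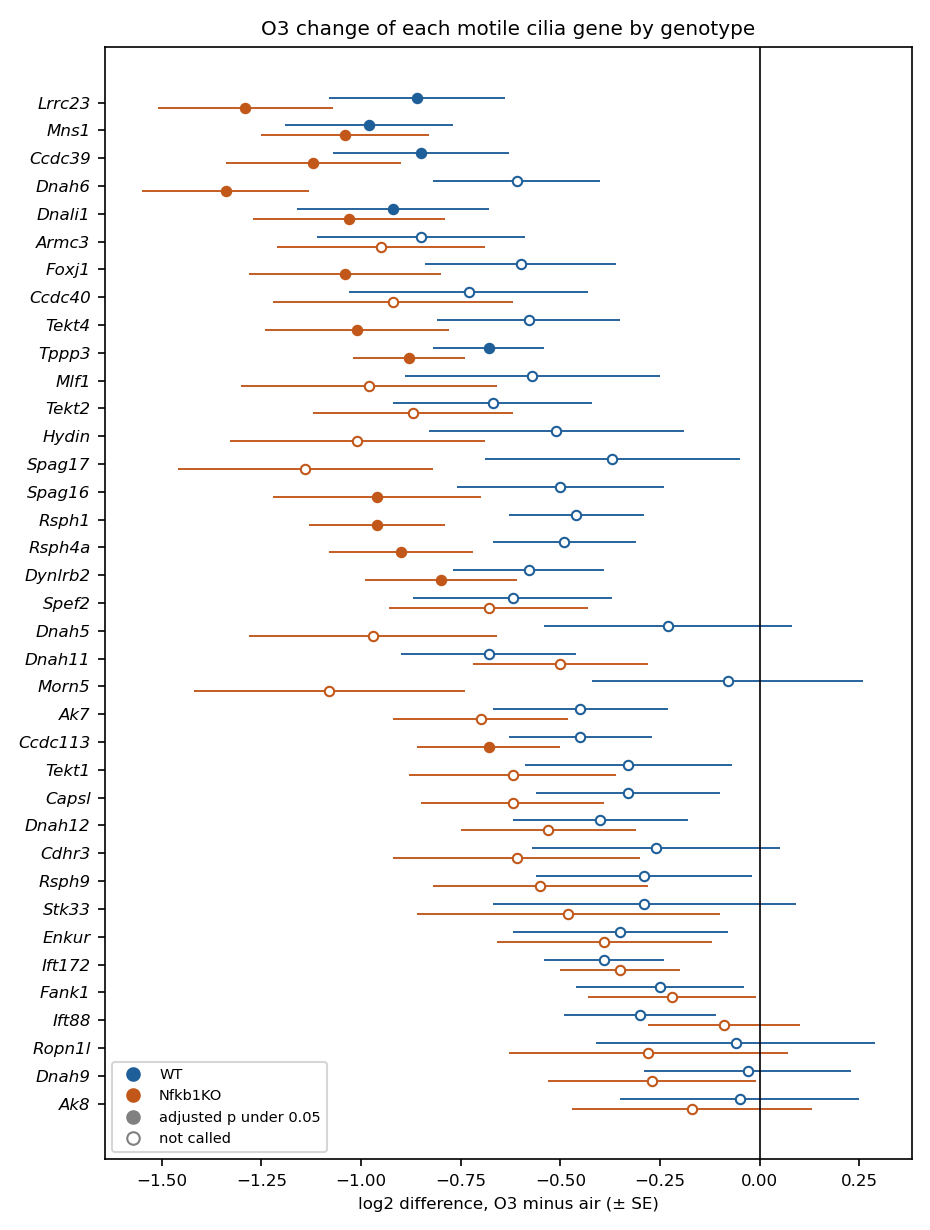
Log2 difference between O3 and air (± SE from limma) for each gene in WT (blue) and Nfkb1-/- mice (orange), ordered by the average of both; filled points are called at adjusted p under 0.05. All points lie below 0, the orange point is the lower one in 33 of the 37 genes, and many of the SE bars of a pair overlap.

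The difference between the genotypes in their O3 change was tested as the interaction, the O3 change in Nfkb1-/- minus that in WT. By limma 0 of the 37 genes were called (0.0342% of all genes), and 1, Dnah6, had an unadjusted p under 0.05 (6.06% of all genes did). The Dnah6 interaction was -0.73 with an interval of -1.37 to -0.09 (adjusted p = 0.81). For Foxj1 it was -0.44 with an interval of -1.16 to 0.29 (adjusted p = 0.86), and for Morn5 -1.0 with an interval of -2.03 to 0.03. A total of 33 interactions were negative (48.5% of all genes) and the median was -0.24 (range of standard errors 0.20 to 0.53). With arrays centred on their medians the median was 0.01 and 18 were negative. These centred values are not relative to the median of all genes, and centring moved that median for O3 in Nfkb1-/- mice. With 0 interactions called, the larger number of calls in Nfkb1-/- mice is not shown to be a difference between the genotypes.

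In air, motile cilia genes had higher signals in Nfkb1-/- than in WT lungs without any passing the test. By limma 0 of the 37 genes were called (0.342% of all genes), and 9 had an unadjusted p under 0.05, all of them higher in Nfkb1-/- (11.3% of all genes in either direction). The methods' t-test on the same values gave 4 genes at an unadjusted p under 0.05 and 0 after Benjamini-Hochberg adjustment. In 34 genes the difference was positive (48.5% of all genes), with a median of 0.41 (all genes -0.01). The largest were Dnah5 (1.32 ± 0.31, adjusted p = 0.12) and Foxj1 (0.95 ± 0.24, adjusted p = 0.14), in both of which the 3 Nfkb1KO-Air arrays lay above the 3 WT-Air arrays. Rsph4a, Spag17, Ccdc113 and Tekt4 were also separated in this way, which made 6 genes, against 6.63% of all genes. Dnah5 spread widely within the group, at 9.71, 8.62 and 8.2 in Nfkb1KO-Air against 7.69, 7.54 and 7.34 in WT-Air. With arrays centred on their medians 8 of the 37 differences in air were negative, a count not taken relative to the median of all genes. Without both array 1 of WT-O3 and array 2 of Nfkb1KO-O3, 1 gene, Foxj1, was called (adjusted p = 0.027, against 0.056 to 0.55 under the other alternatives). The O3 change in Nfkb1-/- mice and the genotype difference in air use the same Nfkb1KO-Air arrays, and neither is independent of the other.

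After O3 the genotypes did not differ past the threshold in any of these genes. By limma 0 of the 37 genes were called (0.723% of all genes) and 1, Fank1, had an unadjusted p under 0.05 (9.43% of all genes). The median difference was 0.11 with 24 of 37 positive (50.5% of all genes), and it was -0.07 without array 2 of Nfkb1KO-O3 and 0.33 without array 1 of WT-O3. Foxj1 was at 0.51 with an interval of -0.00 to 1.02. The groups did not overlap in Dnah5 and Fank1, both higher in Nfkb1-/- (9.31% of all genes), or in Dnah6, which was lower (9.76% of all genes).

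Within a group the 37 genes moved largely together from lung to lung. Expressed as the mean deviation of the genes from their own means, WT-Air arrays stood at 0.25, -0.13 and 0.24, WT-O3 at -0.03, -0.45 and -0.60, Nfkb1KO-Air at 0.47, 0.77 and 0.26 and Nfkb1KO-O3 at -0.41, 0.06 and -0.43. Array 1 of WT-O3 and array 2 of Nfkb1KO-O3 were each the highest of their group in 35 of the 37 genes, and both lay above array 2 of WT-Air, the lowest of its group in 29. Goblet markers on the same scale stood at -0.27, -2.09 and -1.91 in WT-O3 and -0.41, 0.44 and -1.27 in Nfkb1KO-O3, and basal markers at 0.18, -0.84 and -1.09 and at -0.21, 1.07 and -1.12. The array with the highest cilia genes in each O3 group was thus also the highest for both marker lists, and it was the highest for club and skeletal muscle markers too. Leukocyte, endothelial, proliferation and alveolar type 1 and type 2 markers were instead lowest in these arrays. Pan-epithelial markers were highest there only in Nfkb1KO-O3. The part of these cells in the spread was not tested. For the cilia genes air and O3 arrays overlapped in WT mice but not in Nfkb1-/- mice (0.26 to 0.77 against -0.43 to 0.06).

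Other cilia genes, in lists that leave out the 37, were also more often lower than higher after O3. Of 118 listed, 101 were measured, and 28 of these are transport and BBSome genes that primary cilia also use. Some were at or below the low-signal limit in all arrays of a group. They were Cdc20b in WT-O3, Dnah17 in WT-O3 and Nfkb1KO-O3, Rsph6a in WT-Air and WT-O3, and Spag6 in WT-O3, Nfkb1KO-Air and Nfkb1KO-O3. With O3 averaged over both genotypes, 31 of the 101 were called lower and 2 higher, and 89 differences were negative, with a median of -0.41, where 7.51% of all genes were lower, 7.7% higher and 52.8% negative. Taken by genotype, 2 of the 101 were called lower in WT (1.98%, against 2.24% of all genes) and 15 in Nfkb1-/- (14.9%, against 2.83%). In the multiciliation programme 4 of 12 were lower, namely Rfx3, an RFX factor (-0.59 ± 0.13), Myb (-0.80 ± 0.17), Deup1, which builds the deuterosome (-0.99 ± 0.29), and Foxn4 (-1.59 ± 0.49). By limma 0 of the 12 were called in WT, and the same 4 were called in Nfkb1-/-. At an unadjusted p under 0.05, 1 was lower and 2 were higher in WT, against 1779 and 1679 of all 17569 genes. Group means of Deup1 were 7.70 in WT-Air, 7.43 in WT-O3, 9.0 in Nfkb1KO-Air and 7.29 in Nfkb1KO-O3, and its interaction was not called (-1.45 ± 0.57, adjusted p = 0.81). Myb had an interaction of -1.11 ± 0.34 that was not called either (adjusted p = 0.71). Foxn4 rested in part on array 2 of Nfkb1KO-O3, at 2.85 against 6.21 and 5.77 in that group. Among the cytoplasmic assembly factors of dynein arms 4 of 12 were lower, led by Dnaaf1 (-0.98 ± 0.18, adjusted p = 0.0037), and 1, Dnaaf2, was higher (0.44 ± 0.14, adjusted p = 0.049). Other dynein arm and docking genes gave 5 of 13 lower, including the intermediate chains Dnaic1 (-0.82 ± 0.22) and Dnaic2 (-0.85 ± 0.16).

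Other axonemal genes gave 11 of 36 lower, against 7.51% of all genes. Among them were Drc1 of the nexin link (-1.0 ± 0.15, adjusted p = 0.001), Cfap45 (-0.77 ± 0.12), Iqca (-1.0 ± 0.20) and Meig1 (-0.79 ± 0.16). Intraflagellar transport and BBSome genes, which primary cilia also use, had a median of -0.20, with 7 of 28 lower and 1 higher (7.51% and 7.7% of all genes). The lower genes were led by Ift140 (-0.58 ± 0.10, adjusted p = 0.0027), and the higher gene was Ift20 (0.26 ± 0.08, adjusted p = 0.039). In Nfkb1-/- minus WT in air 0 of these 101 genes were called by limma, 84 were positive (48.5% of all genes), 13 had an unadjusted p under 0.05 (11.3% of all genes) and the median was 0.26.

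**Figure D4:**
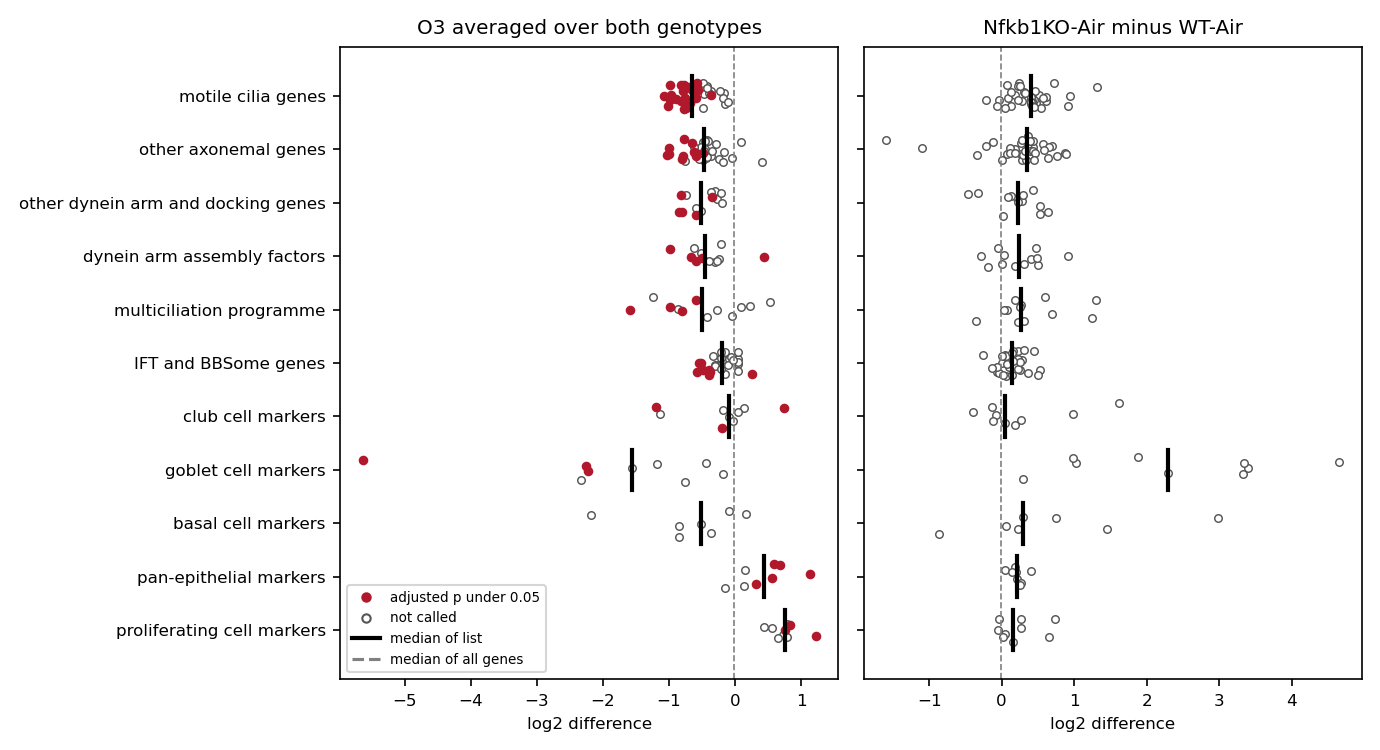
Log2 difference of every measured gene in the motile cilia set, the other cilia lists and markers of other epithelial or dividing cells, for O3 averaged over both genotypes (left) and Nfkb1-/- minus WT in air (right); filled points are called, black bars are list medians and the dashed line is the median of all genes. On the left the motile cilia median is -0.65 and the goblet marker median -1.56, and on the right 0.41 and 2.30.

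Markers of other cells are given beside these results. Goblet cell markers, which mark mucus-secreting cells, gave 3 of 9 called lower with O3 averaged over both genotypes (Clca1, Muc5b and Agr2), against 7.51% of all genes. Their median was -1.56. In air all 9 were higher in Nfkb1-/- (48.5% of all genes), with a median of 2.30. Of these 9, 0 were called by limma and 7 had an unadjusted p under 0.05 (0.342% and 11.3% of all genes). Their summed signal was 1570 to 11500 in WT-Air, 357 to 5970 in WT-O3, 20800 to 27000 in Nfkb1KO-Air and 910 to 11400 in Nfkb1KO-O3. Itln1 was at or below the low-signal limit in all arrays of both air groups, and so were Muc5ac, Clca1 and Itln1 in WT-O3. The summed signal of the 37 cilia genes was 31700 to 40600, 21900 to 30900, 39100 to 54100 and 22700 to 32800 in the same order. Club cell markers, of the secretory cells that neighbour ciliated cells, gave 2 of 9 called lower and 1 higher, against 7.51% and 7.7% of all genes, with a median of -0.09 and sums of 129000 to 148000, 118000 to 147000, 139000 to 151000 and 125000 to 153000. Most of these sums came from Scgb1a1, Scgb3a2, Cyp2f2, Cbr2 and Aldh1a1, at 13.93 to 14.90 in every array. Such bright probe sets may be near saturation, which was not tested, so the sums are a weak guide to club cell change. By limma 0 of 7 basal cell markers were called and 0 had an unadjusted p under 0.05, at a list median of -0.52, and they summed to 317 to 1960, 291 to 675, 782 to 1700 and 280 to 1190. Leukocyte markers were negative in 7 of 8 (52.8% of all genes), with a median of -0.23 and 1 called lower (7.51% of all genes). In air they were positive in 8 of 8 for Nfkb1-/- (48.5% of all genes), with a median of 0.28. Their sums were 16200 to 26700, 15600 to 18500, 23800 to 26600 and 16800 to 25600. Endothelial markers were negative in 7 of 8 (52.8% of all genes), with a median of -0.20 and 2 called lower (7.51% of all genes). They summed to 48300 to 66700, 48600 to 53200, 50500 to 54900 and 41400 to 51000. Skeletal muscle markers were negative in 10 of 10 (52.8% of all genes), with 1 called lower (7.51% of all genes). Their median was -0.84, with -2.76 in WT and 0.96 in Nfkb1-/-, and their sums were 1410 to 37000, 564 to 1190, 1470 to 2240 and 639 to 9300. Whether these cells had a part in the cilia values was not tested.

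Several epithelial keratin and junction genes rose with O3. Of 8 pan-epithelial markers 5 were called higher with O3 averaged over both genotypes (7.7% of all genes), including Krt18 (0.58 ± 0.05) and Cldn4 (1.13 ± 0.10), at a list median of 0.44, and 1, the junction gene Cdh1, was negative without being called (-0.15 ± 0.06, adjusted p = 0.14). Their summed signal was 34300 to 38000 in WT-Air, 50200 to 53500 in WT-O3, 38500 to 41400 in Nfkb1KO-Air and 44200 to 46100 in Nfkb1KO-O3. In WT mice 4 of these 8 were called higher and 8 were positive (median 0.56). In Nfkb1-/- mice 2 were called higher and 6 were positive (median 0.28), against 589 and 8530 of all 17569 genes. The interaction was negative in all 8 (48.5% of all genes), with 0 called by limma and 4 at an unadjusted p under 0.05 (0.0342% and 6.06% of all genes in either direction). Proliferation markers gave 3 of 9 called higher with O3 averaged over both genotypes, against the same 7.7%, with a median of 0.76. They summed to 1410 to 1770, 3510 to 4370, 1130 to 2800 and 1330 to 3140 in the same order. By genotype, 4 of the 9 were called higher in WT mice (median 1.21) and 0 by limma in Nfkb1-/- mice (median 0.25). At an unadjusted p under 0.05 these counts were 9 and 0. Their interaction was negative in all 9 (48.5% of all genes), with 0 called by limma and 4 at an unadjusted p under 0.05. After O3 all 9 were lower in Nfkb1-/- than in WT (median -0.9), with 0 called by limma and 5 at an unadjusted p under 0.05. Technical controls also differed with exposure. The poly-A spike-in controls averaged 9.63 ± 0.26 in air and 9.2 ± 0.26 after O3 (log2, SD, n = 6 arrays each). Their group means were 9.82 in WT-Air, 9.21 in WT-O3, 9.44 in Nfkb1KO-Air and 9.19 in Nfkb1KO-O3. The hybridisation controls averaged 11.66 ± 0.10 in air and 11.43 ± 0.05 after O3. The 3′ minus 5′ signal, a measure of RNA integrity, was -0.21 ± 0.10 in air and -0.51 ± 0.08 after O3 for Gapdh, and 0.48 ± 0.07 and 0.30 ± 0.06 for Actb. The part of these in the cilia values was not tested.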

How the data were processed

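Per the labels and the methods, RNA from 12 left lungs was amplified with the Affymetrix 3′ IVT Plus kit. The deposited table held signal intensities of 45101 probe sets, which the authors computed with MAS5 in Affymetrix Expression Console, scaled to a trimmed mean of 500; versions and detection calls were not given in the sources used here. Here, 64 control probe sets were set aside, signals were floored at 1, log2 transformed and quantile normalised, and probe sets above the 20th percentile of at least 1 array were kept (42559). Over the table, 34958 probe sets had 1 gene symbol, 932 several and 9211 none; 34754 matched RefSeq (GRCm38.p6). The brightest probe set stood for each of 17569 genes. All arrays entered a linear model of the 4 groups in limma 3.58.1 (R 4.3.3) with a trended prior, and it was checked on simulated data. Residual and prior degrees of freedom together came to 12.6. The low number of arrays limits precision. The 6 comparisons were genotype in each exposure, O3 in each genotype, O3 averaged over both and the interaction. The genes and lists were chosen with earlier results of these data known. Every array value is given for Foxj1, for the called genes with the smallest adjusted p (up to 12) and for the 3 with the largest adjusted p for O3 in WT; other lists name up to 4 called genes by p, and Dnaaf2 and Ift20 were named after their values were seen. A total of 25 alternatives was run, of which 23 were planned. The columns used were all mapped to samples by their labels.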

Additional observations from a re-analysis of the deposited data

How the results depend on the processing

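The median O3 difference of the 37 genes stayed below 0 in each genotype and on average under all alternatives run (25 in all), but counts of calls moved more. For O3 in WT, where 5 genes were called, the count was 0 when arrays were median-centred, 1 with an untrended prior, 2 when probe sets of a gene were averaged, 8 with array weights, 1 without both array 3 of WT-Air and array 1 of Nfkb1KO-Air, and 8 without both array 1 of WT-O3 and array 2 of Nfkb1KO-O3. For O3 in Nfkb1-/- mice, where 13 were called, it was 1 with centred arrays (median -0.51), 7 without a trend and 8 without both array 3 of WT-Air and array 1 of Nfkb1KO-Air. For the average over genotypes it was 6 of 23 with centred arrays. For genotype in air, 1 gene was called without both array 1 of WT-O3 and array 2 of Nfkb1KO-O3, a pair left out after seeing the data. The cause was not tested. Leaving out 1 array at a time gave 0 to 5 calls for O3 in WT, 4 to 15 in Nfkb1-/- mice (16 without both array 1 of WT-O3 and array 2 of Nfkb1KO-O3), 15 to 25 for the average and 0 for genotype in either exposure and the interaction. Medians then ran from -0.63 to -0.37 (O3 in WT), -0.96 to -0.68 (O3 in Nfkb1-/-), -0.75 to -0.56 (average), 0.23 to 0.51 (genotype in air), -0.07 to 0.33 (genotype after O3) and -0.45 to -0.07 (interaction). The averaged difference changed sign in Dnah9 (0.05) and Ak8 (0.00) with centred arrays, in Ak8 (0.03) without array 3 of WT-O3 and in Ropn1l (0.06; -0.33 without array 1 of that group) without array 2 of Nfkb1KO-Air.

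The groups share replicate numbers, but residuals of same-numbered arrays correlated between -0.166 and 0.107 (median -0.002, 18 pairs). Arrays of different numbers had a median of 0.007, and 0 of 12 arrays correlated best with their own number. The labels do not say what the number stands for, and with 3 arrays a group these correlations cannot exclude a shared batch. With the replicate number as a block, 3 genes were called for O3 in WT, 11 for O3 in Nfkb1-/-, 21 for the average and 0 for the other comparisons.

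With 3 arrays a group and no detection calls, small differences such as that of Ift88 were not detectable at this precision.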

Other observations

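Of the 37 genes, 10 had further probe sets, 16 in all, that were not used above. Of the 15 that passed the filter on low signals, 14 had a negative difference for O3 averaged over both genotypes. The second Dnali1 probe set gave -0.77 ± 0.17 (-0.97 in the one used) and the second Armc3 probe set -0.63 ± 0.26 (-0.90). The 3 further Fank1 probe sets gave -0.45 ± 0.16, -0.44 ± 0.16 and -0.19 ± 0.14, against -0.23 in the one used, and the further Ropn1l probe set -0.35 ± 0.32, against -0.17. The exception was a dim Spag16 probe set at 1.49 ± 0.78, which lay at or below the low-signal limit in 7 of the 12 arrays.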
